A study of Mus musculus with 6 samples.

Results

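The 10 genes described here are the mouse lipoxygenases and the enzymes that make leukotrienes, chosen by name from the 56748 genes in the count table of each uterus. There were 7 lipoxygenases (*Alox15*, *Alox12*, *Alox12b*, *Alox12e*, *Alox5*, *Alox8* and *Aloxe3*) and 3 leukotriene synthesis genes (*Alox5ap*, *Lta4h* and *Ltc4s*). All 10 were found in every table, and 6 passed the filter on low counts that left 16605 genes for testing. Sexually mature females, C57BL/6 in the labels and C57BL/6J in the study's methods, were mated with fertile wildtype males. Whole uteri were taken at 1600 h on day 4 of pregnancy, before the embryo attaches. The control group (n = 3) carried no Cre and was either wildtype or homozygous for floxed *Gp130*, with the labels naming it WT. The *Gp130* ecKO group (n = 3) was *Ltf* iCre/+ and *Gp130* flox/flox, so *Gp130*, the signal transducer of the leukemia inhibitory factor receptor listed as *Il6st*, was deleted where *Ltf* drives Cre. *Ltf* encodes lactoferrin, a product of the uterine epithelium in adult females and also of neutrophil granules, so recombination is not limited by design to 1 cell type. Each table was made from a single uterus, and p-values measure the spread between these 6 samples.

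Values of 3 uteri are given in the order of the replicate numbers, the control first. Total expected counts ranged from 13960748 in control 3 to 25906443 in control 2. CPM below is the count scaled by library size, with edgeR's library factors (TMM), and TPM is the deposited value per transcript length. *Il6st* had 452 to 678 CPM in control uteri, against 349.8 to 388 CPM in *Gp130* ecKO uteri, with no overlap, in RNA that also held tissue without Cre. A gene was called at a false discovery rate (FDR) under 0.05 with more than 2-fold change in edgeR's quasi-likelihood test, and 26 of 16605 genes (0.157%) were called. *Il6st* was not called (log2 fold change −0.68, adjusted p = 0.12 in that test). Of all genes tested, 31.3% had groups that did not overlap. Leaving out control 2 raised the number called to 897, or 5.23% of the genes then tested.

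Lipoxygenases insert oxygen into polyunsaturated fatty acids such as arachidonic acid and form lipid hydroperoxides, which glutathione peroxidases reduce to hydroxy acids. The enzyme of *Alox5*, with the membrane protein encoded by *Alox5ap* that presents arachidonate to it, forms leukotriene A4, from which *Lta4h* makes leukotriene B4 and *Ltc4s* the cysteinyl leukotriene C4. *Alox15* is known in the mouse uterus as a progesterone-induced gene of the luminal epithelium before implantation, and elsewhere it is made by eosinophils and some macrophages.

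Of the 10 genes, 7 lie on chromosome 11 of GRCm39 in 3 separate places. *Alox12* (chr11:70132283-70146221), *Alox12e* (chr11:70206436-70213454) and *Alox15* (ENSMUSG00000018924, chr11:70234970-70242858) follow each other on the minus strand, and 21515 bases without another annotated gene separate *Alox12e* from *Alox15*. *Aloxe3* (chr11:69016722-69039941, plus strand), *Alox12b* (chr11:69041472-69060618, plus strand) and *Alox8* (chr11:69074711-69088669, minus strand) form another row, and *Ltc4s* (chr11:50127288-50129443, minus strand) lies apart. *Alox5* (chr6:116387032-116438139, minus strand), *Alox5ap* (chr5:149196003-149227762, plus strand) and *Lta4h* (chr10:93289210-93320749, plus strand) are on other chromosomes. The members share no 75-base stretch with another gene on their own strand, so reads of this length separate *Alox15*, *Alox12* and *Alox12e*. On the opposite strand, 8.56% of the 75-base stretches of *Ltc4s* and 6.83% of those of *Alox5* lie in another annotated gene, and for the other members at most 1.04% do. The kit kept strand, but whether strand was used in counting is not given in the sources used here, so antisense reads are a possible part of the *Ltc4s* and *Alox5* counts.

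The promoter of *Alox12e* is shown as the start region of the second most abundant lipoxygenase, whose level is set beside that of *Alox15* in the comparisons that follow. It is the 250 bases before the start of the canonical transcript, read from GRCm39 on the minus strand at chr11:70213455-70213704. Capitals mark the matches to 3 motifs searched on both strands: the STAT-type palindrome TTCNNNGAA, the longer STAT6-type palindrome TTCNNNNGAA, and the steroid receptor half-site TGTTCT.
Alox12e: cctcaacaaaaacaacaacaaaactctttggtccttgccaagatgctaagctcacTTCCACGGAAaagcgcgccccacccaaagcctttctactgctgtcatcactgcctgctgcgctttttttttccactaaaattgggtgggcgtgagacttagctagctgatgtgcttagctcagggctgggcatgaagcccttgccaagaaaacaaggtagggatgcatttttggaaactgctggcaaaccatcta
The *Alox12e* window held TTCNNNNGAA once, from 195 to 186 bases before the start, and neither other motif. Among the 21770 promoters of protein-coding genes read in the same way, 7.70% held TTCNNNGAA, 5.89% held TTCNNNNGAA and 14.3% held TGTTCT. A match describes the letters of the window, not a bound site.

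*Alox15* was the most abundant of the 7 lipoxygenases per transcript length in 6 of 6 uteri. Its level was 1955, 690.4 and 2790 CPM in control uteri, against 283, 218 and 173 CPM in *Gp130* ecKO uteri. The lowest control, control 2, lay above the highest *Gp130* ecKO uterus, so the groups did not overlap, and the controls spread over a wider range than the *Gp130* ecKO uteri. Group means were 1812 CPM (SD 1057, n = 3) for controls and 224 CPM (SD 55.7, n = 3) for *Gp130* ecKO. The log2 fold change was estimated at −3.01 (standard error 0.52, 95% confidence interval −4.23 to −1.80), an 8.07-fold lower level in *Gp130* ecKO. In edgeR's quasi-likelihood test the adjusted p was 0.0633, over the threshold. The exact two-sided permutation test gave p = 0.1, the smallest that 3 uteri against 3 allow.

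In the order of all genes by TPM, *Alox15* ranked 142, 343 and 100 in control uteri, against 853, 1034 and 1493 in *Gp130* ecKO uteri. It therefore stayed among the more abundant transcripts of the *Gp130* ecKO uterus. Of the 16605 genes, 172 (1.04%) had a larger change in either direction, and 67 (0.403%) had a larger change downward.

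None of the 6 members tested was called by the quasi-likelihood test, against 0.157% of all genes. With an unadjusted p under 0.05 there were 2, *Alox15* and *Ltc4s*, both lower, where 25.0% of all genes tested passed in either direction and 12.9% in the lower direction. The same 2 members were those whose groups did not overlap, against 31.3% of all genes in either direction and 15.6% lower. *Alox15* and *Ltc4s* were called by edgeR's exact test, which called 7.54% of genes, and by DESeq2, which called 9.65%. The median log2 fold change of all genes tested was −0.05.

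**Figure D1:**
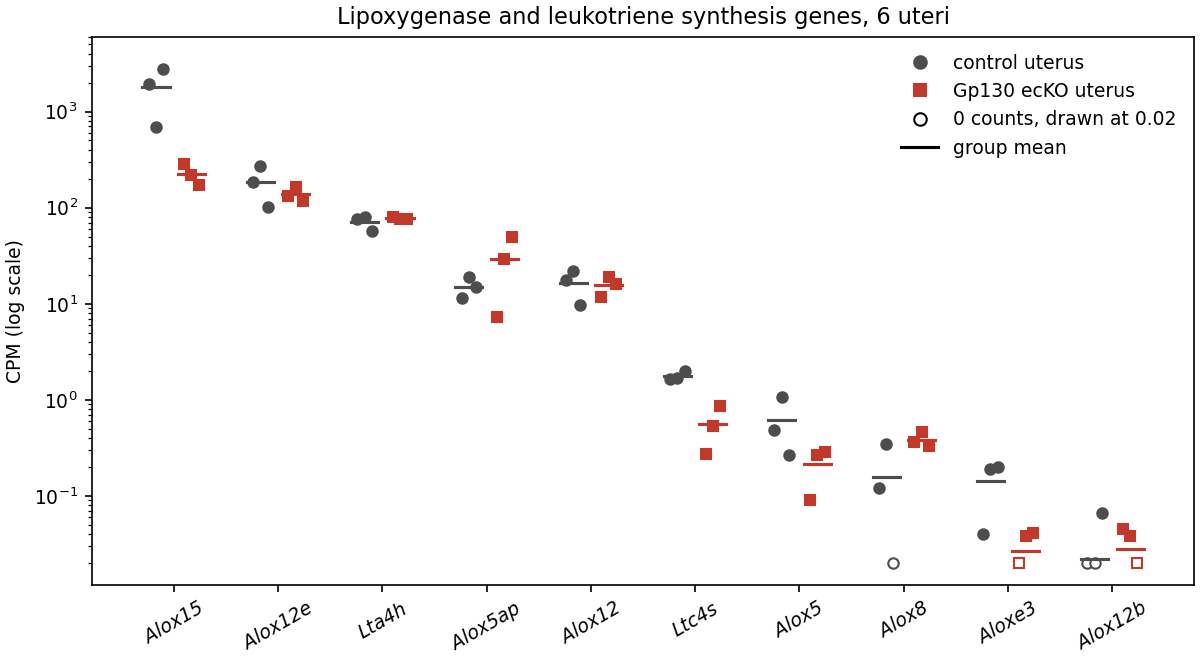
CPM of the 10 genes (log axis, counts scaled by TMM library size) in 3 control (circles) and 3 Gp130 ecKO uteri (squares), with group means as bars and uteri with 0 counts drawn open at 0.02. Alox15 and Ltc4s are the tested genes whose groups do not overlap, with Alox15 at 690.4 to 2790 CPM in the control and 173 to 283 CPM in Gp130 ecKO.

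The direction of the *Alox15* difference held in all 15 alternative analyses, where the log2 fold change ranged from −3.37 to −2.56. Its adjusted p ranged from 9.54e-08 with DESeq2 to 0.176 without *Gp130* ecKO 1. It was under 0.05 in 4 of the 15, namely the exact test (7.4e-06), DESeq2, the quasi-likelihood test without a filter on low counts (0.0393) and the fit without control 2 (0.00818). Without control 3, which had the highest level, the log2 fold change was −2.56 and the adjusted p 0.139.

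**Figure D2:**
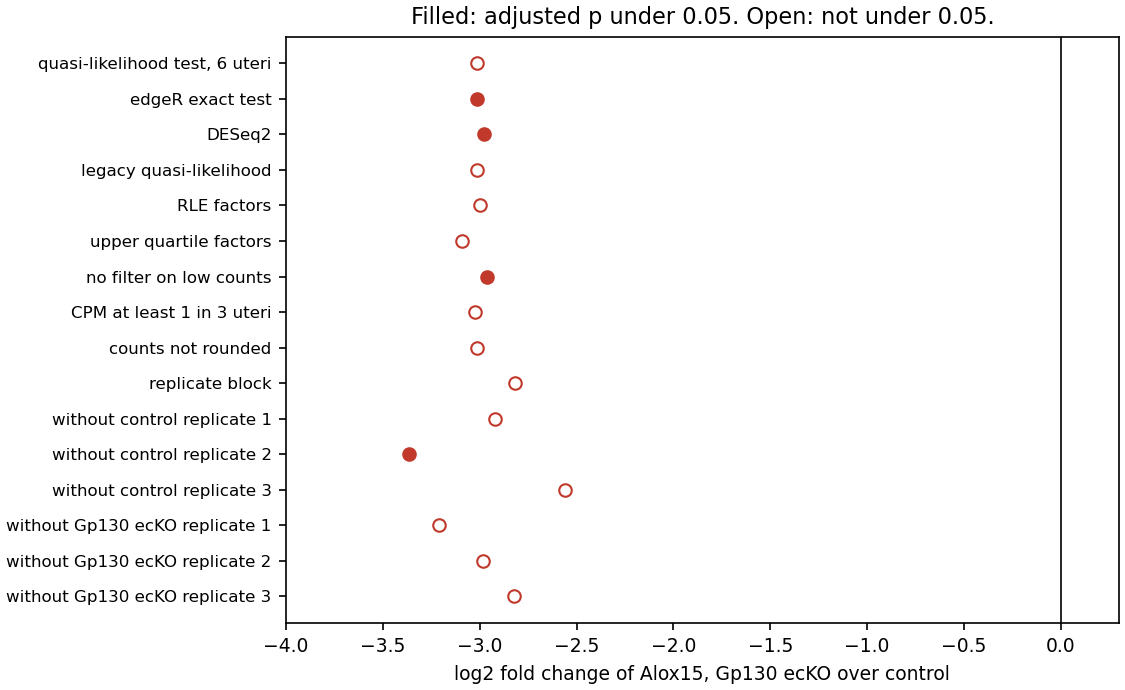
Log2 fold change of Alox15 (Gp130 ecKO over control) in the quasi-likelihood test of all 6 uteri and in 15 alternatives, filled where the adjusted p is under 0.05. The values lie between −3.37 and −2.56, and 4 of the 15 alternatives are filled.

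*Alox12e*, the neighbouring lipoxygenase of epidermal type, was the second most abundant of the 7 lipoxygenases. Its level was 185, 269 and 103 CPM in control uteri, against 132, 163 and 117 CPM in *Gp130* ecKO uteri. The highest value and the lowest value were both in controls, and all *Gp130* ecKO uteri lay between them. The log2 fold change was estimated at −0.44 (standard error 0.33, 95% confidence interval −1.22 to 0.35, adjusted p = 0.439 in edgeR's quasi-likelihood test), and it ranged from −0.73 to −0.04 with 1 uterus left out. The interval does not reach the change of *Alox15*. *Alox12*, the platelet-type lipoxygenase at the far end of the same row, had 17.8, 21.7 and 9.73 CPM in control uteri, against 11.8, 18.9 and 16.1 CPM in *Gp130* ecKO uteri. These ranges overlapped nearly throughout. Its log2 fold change was estimated at −0.08 (standard error 0.34, 95% confidence interval −0.87 to 0.71, adjusted p = 0.898), and the sign turned when control 1, control 2 or *Gp130* ecKO 1 was left out. Of the 7 listed platelet and megakaryocyte markers only *Pf4* and *Itga2b* were tested and neither had a p under 0.05, while *Gp6* was at 0 in all 6 uteri. The platelet chemokine gene *Pf4* had 2.31 to 5.73 CPM in control uteri, against 0.633 to 2.20 CPM in *Gp130* ecKO uteri, without overlap (log2 fold change −1.28, adjusted p = 0.207). The summed level of the 7 was 10.8 to 19.7 CPM in control uteri, against 10.8 to 12.9 CPM in *Gp130* ecKO uteri, and most of it came from *Itga2b*, at 7.73 to 11.6 CPM over the 6 uteri. The part of platelets in the *Alox12* values was not tested.

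Compared per transcript length, the 7 lipoxygenases summed to 1140, 546 and 1723 TPM in control uteri, against 255, 258 and 162 TPM in *Gp130* ecKO uteri. *Alox15* made up 90.6%, 70.3% and 96.1% of this sum in the controls and 66.2%, 54.5% and 56.5% in *Gp130* ecKO. The groups did not overlap, at 85.7% ± 13.6 (SD, n = 3) in the control and 59.1% ± 6.25 (SD, n = 3) in *Gp130* ecKO. *Alox12e* made up 8.66%, 27.7% and 3.60% of the sum in the controls and 31.4%, 41.4% and 38.8% in *Gp130* ecKO. The part of *Alox12* was below 5% in every uterus, and the other 4 lipoxygenases together stayed below 1%. Control 2 had the smallest *Alox15* share of the controls and was the control nearest to the *Gp130* ecKO uteri. The same shares from FPKM or CPM differed by less than 1 percentage point in the group means.

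**Figure D3:**
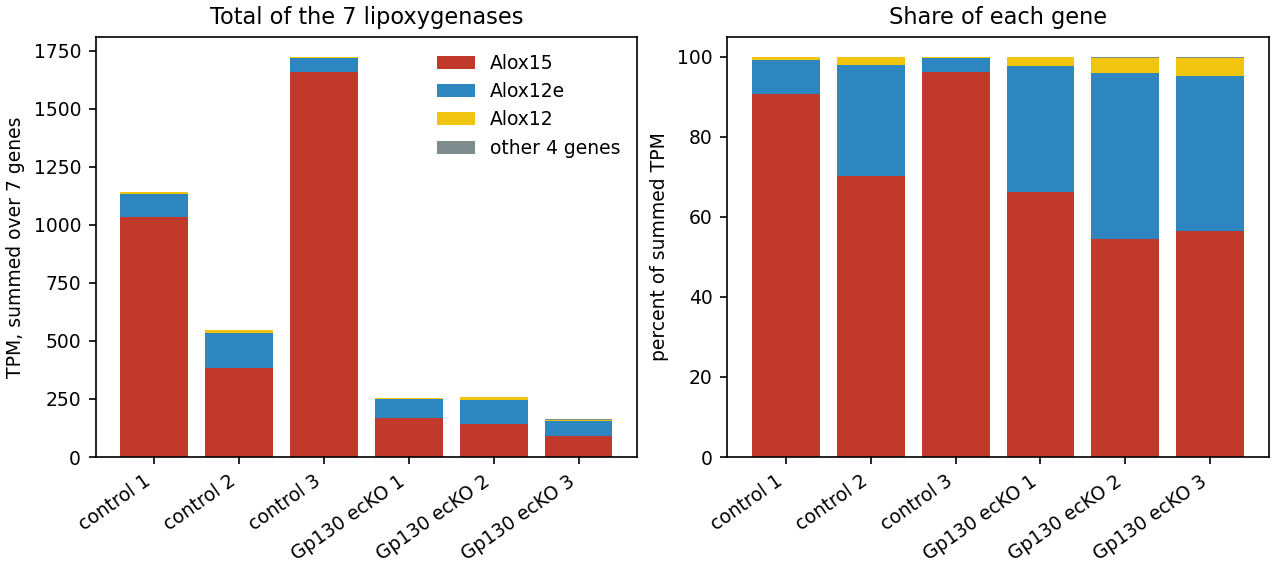
Summed TPM of the 7 lipoxygenases (left, stacked bars from 0) and the percent of that sum from each gene (right) in each of the 6 uteri. The sum lies between 546 and 1723 TPM in the control and between 162 and 258 TPM in Gp130 ecKO, and Alox15 gives 70.3% to 96.1% and 54.5% to 66.2% of it.

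In the control, *Alox15* (384 to 1656 TPM) stood above all other members in each uterus. *Alox12e* (62.0 to 151.5 TPM) and *Lta4h* (62.5 to 66.0 TPM) followed and overlapped. *Alox5ap* (22.4 to 36.3 TPM) came next and overlapped neither neighbour in the order. *Alox12* (4.83 to 10.04 TPM) and *Ltc4s* (3.57 to 5.03 TPM) overlapped in turn, and the remaining 4 were each below 1 TPM in every uterus. In *Gp130* ecKO the *Alox15* level of 91.4 to 169 TPM overlapped that of *Alox12e*, at 62.9 to 107 TPM, across uteri, although *Alox15* was the higher of the pair within each uterus. *Alox5ap*, at 16.0 to 93.2 TPM, overlapped *Lta4h*, at 55.8 to 69.7 TPM, *Alox12e* and *Alox15* in this group, and in *Gp130* ecKO 3 it stood above *Alox15*, at 93.2 against 91.4 TPM.

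In RNA of whole uterus, fewer cells of a type and less RNA per cell cannot be told apart. Among the 16605 genes tested, 2010 were higher and 2141 lower in *Gp130* ecKO at an unadjusted p under 0.05. Of 8 epithelial markers, 4 (*Krt7*, *Krt8*, *Krt19* and *Cdh1*) had such a p and were higher in *Gp130* ecKO, none was lower by that measure and none was called. Their summed level was 2241 to 3942 CPM in control uteri, against 5446 to 7190 CPM in *Gp130* ecKO uteri. The sum was thus higher in every *Gp130* ecKO uterus than in every control, while *Alox15* was lower. By staining, the study found more KRT8 and CDH1 protein in the epithelium of *Gp130* ecKO. The sum is therefore not a measure of the amount of epithelium alone. Markers of other tissues of the uterus were measured as well. All 5 endothelium markers had an unadjusted p under 0.05 and were lower in *Gp130* ecKO, where 12.9% of all genes tested were lower by that measure. The median log2 fold change of the 5 was −1.26. These endothelium markers summed to 342 to 820 CPM in control uteri, against 185 to 332 CPM in *Gp130* ecKO uteri. All 7 stroma markers had a negative log2 fold change, 4 of them with an unadjusted p under 0.05, and their median was −0.77. The stroma markers summed to 2662 to 3531 CPM in control uteri, against 1433 to 2436 CPM in *Gp130* ecKO uteri, and neither sum overlapped between groups. The 6 smooth muscle markers had no p under 0.05 and summed to 568 to 2781 CPM in control uteri, against 475 to 2994 CPM in *Gp130* ecKO uteri, with control 3, *Gp130* ecKO 1 and *Gp130* ecKO 2 below the other three. The 6 gland markers summed to 8729 CPM in *Gp130* ecKO 1, mostly from the protease genes *Prss28* and *Prss29*, against 138 to 1068 CPM in the other five uteri, and of them *Lif* had an unadjusted p under 0.05 (higher). None of these markers was called, and the part of tissue make-up in the *Alox15* values was not tested. *Epcam*, an adhesion molecule of epithelial cells, had 348 to 650 CPM in control uteri, against 363 to 429 CPM in *Gp130* ecKO uteri.

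Divided by *Epcam* within each uterus, *Alox15* stood at 3.01, 1.82 and 8.02 in control uteri, against 0.661, 0.600 and 0.417 in *Gp130* ecKO uteri. The groups remained apart on this scale, which was chosen after the data were seen (exact two-sided permutation p = 0.1). Of the 8 epithelial markers only *Epcam* had a negative log2 fold change (−0.19). Over the sum of the 8 markers, *Alox15* stood at 0.175 to 1.24 in the control and 0.0307 to 0.0399 in *Gp130* ecKO, without overlap. Its log2 difference was −3.75 over that sum and −2.69 over *Epcam*. The ratio of *Alox15* to *Alox12e* CPM was 10.6, 2.56 and 27.2 in the controls and 2.14, 1.34 and 1.48 in *Gp130* ecKO, again without overlap. Control 2 lay close to *Gp130* ecKO 1 in this ratio. The ratio of *Alox12e* to *Epcam*, by contrast, was 0.284, 0.711 and 0.295 in the controls and 0.308, 0.448 and 0.282 in *Gp130* ecKO, with overlap (exact two-sided permutation p = 0.8). Divided by the sum of the 8 epithelial markers, *Alox12e* had 0.0458 to 0.0683 in the control and 0.0184 to 0.0299 in *Gp130* ecKO, without overlap, so its place relative to the epithelium depended on the marker.

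**Figure D4:**
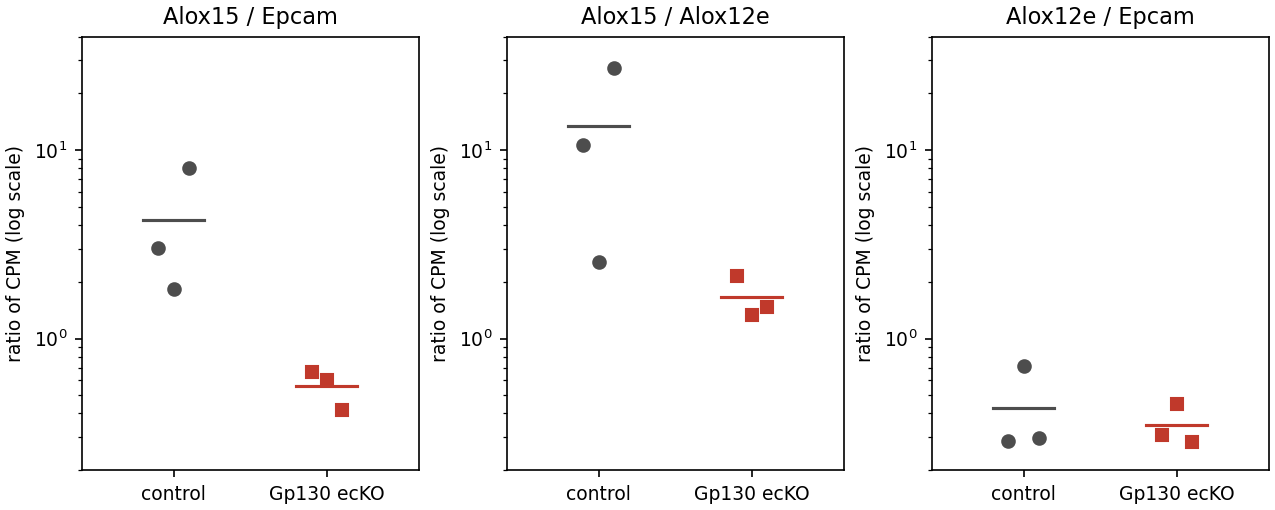
Ratios of CPM within each uterus (log axes) for Alox15 to Epcam, Alox15 to Alox12e and Alox12e to Epcam, with group means as bars. The first 2 ratios are lower in every Gp130 ecKO uterus than in every control uterus, and the third overlaps.

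Markers of other cells in which *Alox15* is known were also measured. Of 8 eosinophil markers, the granule protein genes *Epx* and *Ear1* were at 0 in all 6 uteri, and the whole list summed to 1.80 to 2.85 CPM in control uteri, against 1.24 to 1.63 CPM in *Gp130* ecKO uteri, without overlap. Only *Prg2* and *Ear2* were tested, with log2 fold changes of −1.10 and −1.002 and no p under 0.05. In the fit without the filter the receptor genes *Ccr3* and *Il5ra* went opposite ways, at −4.27 (adjusted p = 0.126) and 2.97 (adjusted p = 0.175), and *Il5ra* gave 1.13 of the 1.63 CPM in *Gp130* ecKO 1. Of 10 macrophage markers, 9 were tested and only the mannose receptor *Mrc1* had an unadjusted p under 0.05 (lower, adjusted p = 0.0804). By that measure 12.9% of all genes tested were lower. The sum of the 10 macrophage markers was 416 to 536 CPM in control uteri, against 274 to 553 CPM in *Gp130* ecKO uteri, with overlap. The lysozyme gene *Lyz2* made up a large part of this sum, at 206 to 261 CPM in control uteri and 142 to 466 CPM in *Gp130* ecKO uteri. Of the 9, 7 had a negative log2 fold change, and the median of the 9 was −0.60. The part of eosinophils and macrophages in the *Alox15* level was not tested.

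*Aloxe3* and *Alox12b*, which act in sequence in the epidermal barrier, were near the limit of detection. *Alox12b* had 1 count in the control group and 2 in *Gp130* ecKO, both under the floor of 3 counts, so no fold is given. *Aloxe3* had 1, 5 and 3 counts in control uteri, against 0, 1 and 1 in *Gp130* ecKO uteri. The rate in the control was 4.95 times that in *Gp130* ecKO, with a 95% counting interval of 1.03 to 47.1. These uteri overlapped, with 1 count in control 1 and in 2 *Gp130* ecKO uteri, and the interval covers counting error only. Between uteri, the log2 fold change in the fit without the filter was −2.09 (standard error 1.06, 95% confidence interval −4.38 to 0.20, adjusted p = 0.347). *Alox8*, the skin-type lipoxygenase that is inducible by phorbol ester, had 3, 9 and 0 counts in the controls and 8, 12 and 8 in *Gp130* ecKO. Its log2 fold change in the fit without the filter was 1.11 (standard error 0.81, adjusted p = 0.529), and the groups overlapped. It was 2.34 without control 2 and 0.72 without control 3.

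Among the genes that make leukotrienes, *Alox5* itself was scarce. It had 12, 28 and 4 counts in control uteri, against 2, 7 and 7 in *Gp130* ecKO uteri. Control 3 lay among the *Gp130* ecKO uteri, so the groups overlapped. In the fit without the filter its log2 fold change came to −1.51 (standard error 0.72, adjusted p = 0.331), and it was −0.77 without control 2.

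*Ltc4s*, the glutathione-conjugating enzyme that forms leukotriene C4, had 41, 44 and 30 counts in control uteri, against 6, 14 and 21 in *Gp130* ecKO uteri. On the CPM scale these were 1.66, 1.70 and 2.00 in the control and 0.271, 0.538 and 0.871 in *Gp130* ecKO. The controls lay close together, every *Gp130* ecKO uterus was below all of them, and *Gp130* ecKO 1 was the lowest. The log2 fold change was estimated at −1.64 (standard error 0.46, 95% confidence interval −2.73 to −0.56), a 3.12-fold lower level, with an adjusted p of 0.108 in edgeR's quasi-likelihood test. The adjusted p was 0.0458 with DESeq2 and 0.0439 with the exact test of edgeR, and its range over the 15 alternatives was 0.0439 to 0.296. Leaving out 1 uterus moved the log2 fold change between −2.07 and −1.33.

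*Lta4h*, a widely expressed epoxide hydrolase and aminopeptidase, had 76.4, 79.3 and 57.2 CPM in control uteri, against 79.3, 76.4 and 75.9 CPM in *Gp130* ecKO uteri. The *Gp130* ecKO uteri lay within the range of the controls or at its top. Its log2 fold change was estimated at 0.12 (standard error 0.17, 95% confidence interval −0.28 to 0.52, adjusted p = 0.684), the narrowest interval of the members, and the sign turned without control 3 (−0.01). *Alox5ap* had 11.4, 19.0 and 14.8 CPM in control uteri, against 7.37, 29.6 and 49.9 CPM in *Gp130* ecKO uteri. *Gp130* ecKO 1 was below all controls and the other two above them. Its log2 fold change was estimated at 0.94 (standard error 0.59, 95% confidence interval −0.45 to 2.33, adjusted p = 0.353), and it was 1.40 without *Gp130* ecKO 1 and 0.33 without *Gp130* ecKO 3. The *Alox5ap* level thus spread widely among the *Gp130* ecKO uteri (SD 21.3 CPM, n = 3).

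White blood cells are the known main site of *Alox5* and *Ltc4s*, and their markers were measured beside these genes. Among all genes tested, 12.9% were lower in *Gp130* ecKO at an unadjusted p under 0.05, and 25.0% passed in either direction. Of 10 neutrophil markers 5 were tested, and 3 (*S100a8*, *S100a9* and *Retnlg*) had such a p and were lower in *Gp130* ecKO. Counts of *S100a8* were 21, 20 and 6 in control uteri, against 0, 2 and 3 in *Gp130* ecKO uteri. Those of *S100a9* were 60, 62 and 15 against 0, 0 and 13, and those of *Retnlg* 28, 81 and 8 against 6, 4 and 4. These 3 genes passed the filter on low counts through the control uteri, so their number cannot be weighed against the 12.9%. Of the other neutrophil markers tested, *Csf3r* had a log2 fold change of −1.25 and *Ly6g* one of 1.08, both with overlap. The granule genes *Ngp* and *Elane* were at 0 in all 6 uteri. The 10 neutrophil markers summed to 5.93 to 9.45 CPM in control uteri, against 1.22 to 4.68 CPM in *Gp130* ecKO uteri, without overlap. Of 8 mast cell markers 6 were tested, of which *Kit*, *Tpsb2* and *Cma1* were lower and *Hdc* higher at an unadjusted p under 0.05. *Hdc*, the histamine-forming enzyme that uterine epithelium also makes, accounted for most of the mast cell sum of 1003 to 1572 CPM in control uteri, against 1752 to 2253 CPM in *Gp130* ecKO uteri. The part of these cells in the *Alox5* and *Ltc4s* values was not tested.

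The surrounding pathway was read from 5 lists of 58 genes in all, and 40 of the genes passed the filter. At an unadjusted p under 0.05, 5 of the 40 were higher and 9 lower, where 25.0% of all genes tested passed in either direction, and none was called by the quasi-likelihood test. In the list of arachidonate release, 8 of 15 genes were tested, with 2 higher and 1 lower by that measure and a median log2 fold change of 0.71 beside −0.05 for all genes. *Pla2g4a*, the cytosolic phospholipase A2 that frees arachidonate from membranes, had 68.0, 268 and 88.7 CPM in control uteri, against 652, 946 and 407 CPM in *Gp130* ecKO uteri. All *Gp130* ecKO uteri were above all controls, with control 2 the nearest. Its log2 fold change was estimated at 2.24 (standard error 0.57, adjusted p = 0.0941). The secreted phospholipase *Pla2g5* had 0.364, 6.21 and 2.20 CPM across control uteri and 25.5, 13.7 and 18.4 CPM across *Gp130* ecKO uteri (log2 fold change 2.7, adjusted p = 0.113). *Pla2g4b*, a weakly expressed relative of *Pla2g4a*, had 0.694 to 2.60 CPM in control uteri, against 0.271 to 0.692 CPM in *Gp130* ecKO uteri. The difference on which the *Pla2g4b* groups stay apart is smaller than 1 count.

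Of 12 genes of leukotriene conversion and breakdown, 9 were tested, with 2 higher and 1 lower at an unadjusted p under 0.05. Over all genes tested, 25.0% had such a p in either direction. *Ptgr1*, a reductase that inactivates leukotriene B4 and prostaglandins, had 35.5, 54.8 and 24.9 CPM in control uteri, against 158, 82.1 and 62.6 CPM in *Gp130* ecKO uteri (log2 fold change 1.39, adjusted p = 0.113). *Ggt1*, which removes glutamate from leukotriene C4, had 0.267 to 0.405 CPM in control uteri, against 0.50 to 2.74 CPM in *Gp130* ecKO uteri, and the dipeptidase *Dpep1*, which acts next, had 3.84 CPM or more in the control and at most 4.15 CPM in *Gp130* ecKO. The *Dpep1* groups overlapped. *Ggt1* had 10, 10 and 4 counts in control uteri and 50, 13 and 66 in *Gp130* ecKO uteri, through which it passed the filter. Of 11 receptor genes 5 were tested and none had a p under 0.05. The receptor for cysteinyl leukotrienes *Cysltr1* had 1.58 to 2.93 CPM in control uteri, against 0.995 to 2.65 CPM in *Gp130* ecKO uteri, and the leukotriene B4 receptor *Ltb4r1* was below 1 CPM in every uterus.

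All 10 genes of hydroperoxide reduction and epoxide hydrolysis were tested, with 1 higher and 4 lower at an unadjusted p under 0.05. By that measure 12.9% of all genes tested were lower and 25.0% passed in either direction. *Gpx2*, an epithelial glutathione peroxidase, had 746, 268 and 513 CPM in control uteri, against 102, 56.9 and 142 CPM in *Gp130* ecKO uteri. All *Gp130* ecKO uteri were below all controls, and as for *Alox15* the lowest control was control 2. The log2 fold change was estimated at −2.34 (standard error 0.46, adjusted p = 0.0677). *Gpx7* (log2 fold change −1.13, adjusted p = 0.0737) and *Gpx8* (−0.73, adjusted p = 0.106), peroxidases of the endoplasmic reticulum, were lower without overlap, while *Gpx4*, which reduces lipid hydroperoxides within membranes, had 228 to 319 CPM in control uteri, against 196 to 270 CPM in *Gp130* ecKO uteri. The epoxide hydrolase *Ephx1* was higher in every *Gp130* ecKO uterus, at 56.3 to 147 CPM against 33.0 to 49.6 CPM (log2 fold change 1.28, adjusted p = 0.111). *Ephx3* went the other way, at 0.445 to 1.27 CPM in control uteri, against 0.136 to 0.249 CPM in *Gp130* ecKO uteri (log2 fold change −2.03, adjusted p = 0.112). Its counts were 11, 17 and 19 against 3, 4 and 6, so it passed the filter through the control uteri.

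In blood cells *Alox15* is induced by the cytokines interleukin-4 and interleukin-13, and 8 of 10 genes of that pathway were tested. At an unadjusted p under 0.05, 3 of them were lower and none was higher. By that measure 12.9% of all genes tested were lower and 25.0% passed in either direction. *Il13* had 0 counts in all 6 uteri and *Il4* was below 2 CPM in each. The kinase gene *Jak3* had 38.7, 29.3 and 26.7 CPM in control uteri, against 9.81, 14.8 and 11.3 CPM in *Gp130* ecKO uteri, without overlap (log2 fold change −1.40, adjusted p = 0.0635). The shared receptor chain *Il2rg* and the receptor *Il13ra1* were the other two with a p under 0.05, and both overlapped between the groups. *Stat6*, the transcription factor of this pathway, had 49.5 to 65.3 CPM in control uteri, against 61.4 to 74.2 CPM in *Gp130* ecKO uteri. The kinase gene *Tyk2* had 24.6 to 30.2 CPM in control uteri, against 31.3 to 34.3 CPM in *Gp130* ecKO uteri, without overlap (log2 fold change 0.27, adjusted p = 0.348). For *Il4ra* the values were 56.3 to 73.9 CPM in control uteri, against 47.9 to 53.7 CPM in *Gp130* ecKO uteri, also without overlap (log2 fold change −0.32, adjusted p = 0.263).

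**Figure D5:**
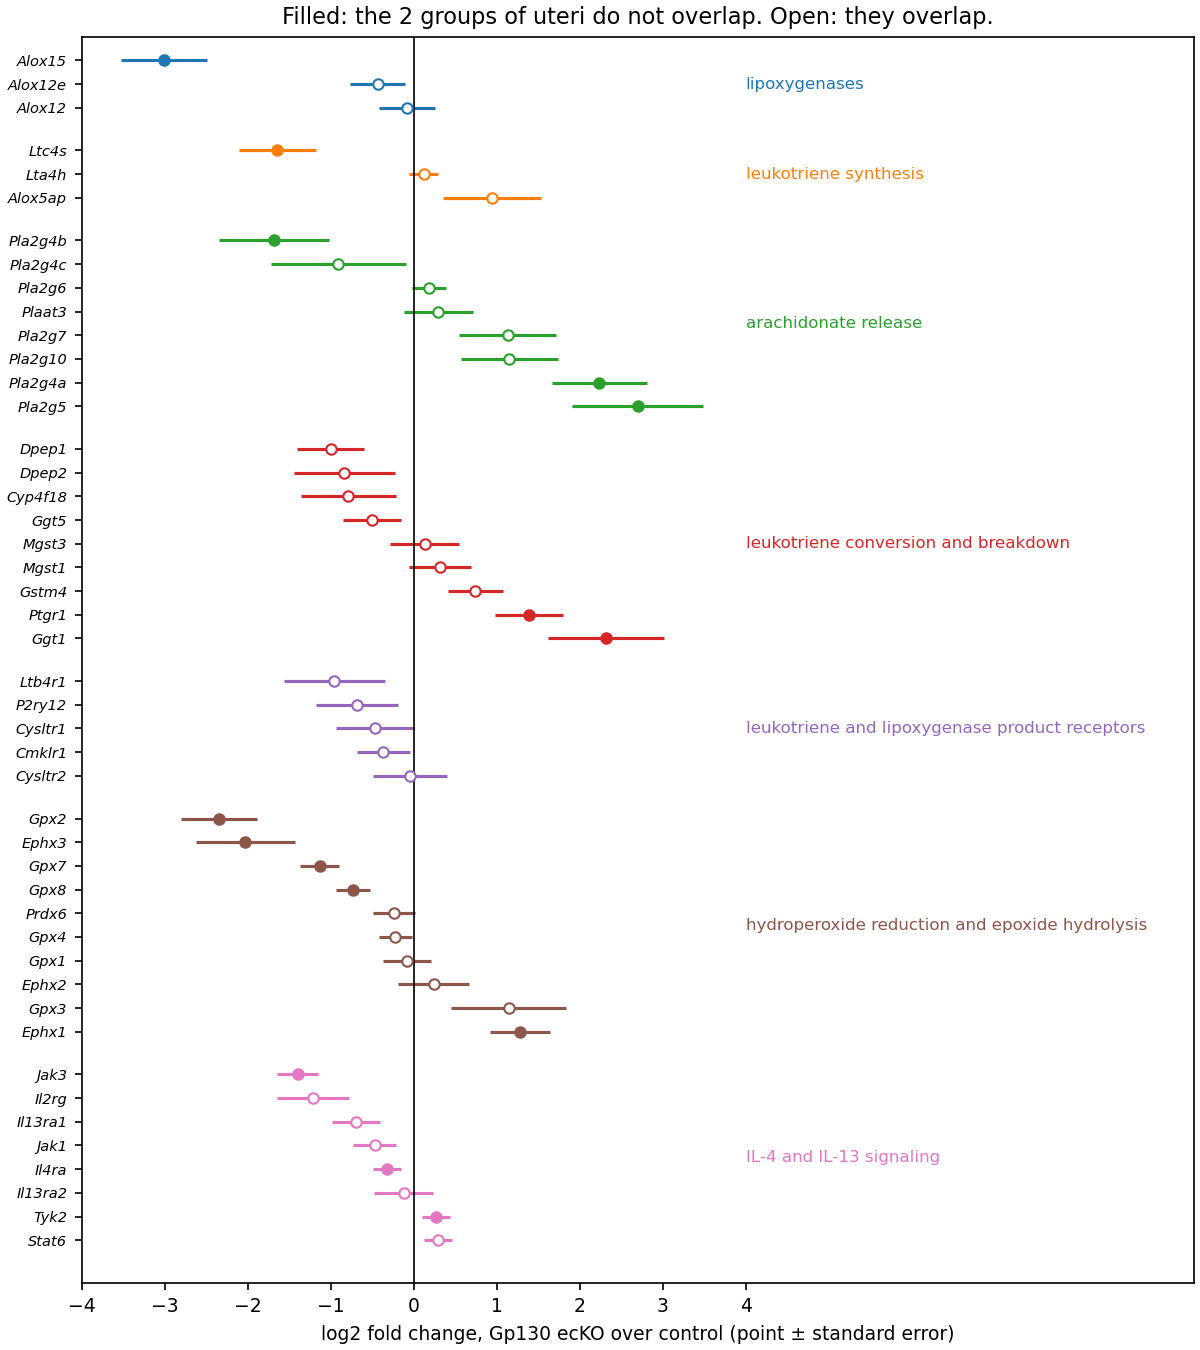
Log2 fold change (Gp130 ecKO over control, point with standard error) of each tested gene of the lipoxygenase, leukotriene synthesis and 5 pathway lists, filled where the 2 groups of uteri do not overlap. Alox15 at −3.01 is the lowest point and Pla2g5 at 2.7 the highest, and no gene shown passed the FDR threshold of 0.05.

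*Alox15* is among the genes known to follow progesterone in the uterus. Of 15 other such genes listed, all tested, 8 had an unadjusted p under 0.05 and were lower, where 12.9% of all genes tested were lower by that measure. None had such a p and was higher, although *Gata2*, *Lrp2* and *Pgr* had positive log2 fold changes, and the median of the 15 was −0.85. The list was chosen with earlier results of these data known, so its counts describe these genes and are not a test. The most negative of the 8 were *Areg*, an epidermal growth factor family ligand, at 16.1 to 127 CPM in control uteri, against 0.136 to 1.73 CPM in *Gp130* ecKO uteri (log2 fold change −5.89, adjusted p = 0.0635), and *Cyp26a1*, which breaks down retinoic acid, at −5.20 with overlap (adjusted p = 0.123). *Hand2*, *Hoxa10*, *Hoxa11* and *Bmp2*, which are known genes of the uterine stroma, were among the 8, and the stroma markers were lower beside them, such as *Vim* at −1.02 and *Pdgfrb* at −1.23. The part of the stroma in the values of these 4 was not tested. The progesterone receptor gene *Pgr* had 57.2, 202 and 128 CPM in control uteri, against 172, 203 and 272 CPM in *Gp130* ecKO uteri. Control 1, with the lowest *Pgr*, had the second highest *Alox15*. The part of *Pgr* in the *Alox15* values was not tested.

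Of the genes with a mean of at least 1 CPM, the 8 whose log2(CPM + 0.5) followed *Alox15* most closely over the 6 uteri were *Sema6d*, *Pgs1*, *Gpatch4*, *Camk2n2*, *Alms1-ps2*, *Rufy3*, *Grwd1* and *Has1*, with Pearson r from 0.998 to 0.991. The 5 with the most opposite course were *Fbxw5*, *Vmac*, *Syn2*, *Rab19* and *Ppm1l*, with r from −0.997 to −0.994. These points share libraries and the group difference, and with 6 uteri and many genes such values describe likeness only. Within groups, after centring on the group means, r remained 0.948 or more for the first 8. *Has1*, a hyaluronan synthase, had 2.02, 0.694 and 3.87 CPM in control uteri, against 0.181, 0.0385 and 0.0415 CPM in *Gp130* ecKO uteri. Of the other members tested, *Ltc4s* had r = 0.81 with *Alox15*, but −0.15 after centring. *Lta4h* had r = −0.63 and *Alox5ap* r = −0.49, and after centring −0.68 and −0.47. *Alox12e* had r = 0.03 and *Alox12* r = −0.31, and after centring −0.79 and −0.81, and in the control group *Alox12e* and *Alox12* were highest in control 2, where *Alox15* was lowest, and lowest in control 3, where it was highest.

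The genes around *Alox15* were examined for a shared course along the chromosome. From 100 kb before *Alox12* to 100 kb after *Alox15* there were 10 tested genes other than members, none called, with log2 fold changes from −1.61 to 0.23. Those with an unadjusted p under 0.05 were *Bcl6b*, a transcription repressor (−1.61, adjusted p = 0.0635), and *Arrb2*, an arrestin (−1.03, adjusted p = 0.133), both lower. By that measure 12.9% of all genes tested were lower and 25.0% passed in either direction. The gene tested that lies nearest to *Alox15* on the side away from *Alox12e* was *Pelp1*, at −0.11 (standard error 0.22). Within 100 kb of *Aloxe3*, *Alox12b* and *Alox8*, 7 genes were tested and none had a p under 0.05.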

How the data were processed

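RNA of 6 whole uteri, 3 per group by the titles in the labels, was sequenced by the authors as single 75-base reads from strand-specific poly(A) libraries. Per the study's methods and processing notes, reads were trimmed with fastp 0.23.2, cleared of ribosomal RNA, mapped to GRCm39 with STAR 2.7.10a and counted with RSEM 1.3.3, which divides reads that fit several genes between them. The deposited unit used for tests was the expected count, which the authors did not normalize. The deposited TPM and FPKM, which the authors scaled for transcript length and depth, were used for levels, ranks and shares of genes and not for tests.

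After rounding, edgeR 4.0.16 under R 4.3.3 was used (filterByExpr, TMM, quasi-likelihood F test with legacy off, Benjamini-Hochberg over all 16605 genes tested). A standard error is the absolute log2 change over the root of its F statistic. Members under the filter were taken from the fit of 29916 genes with at least 1 count. Single values were compared with an exact permutation test of log2(CPM + 0.5). Alternatives were edgeR's exact test, DESeq2 1.42.0, the legacy quasi-likelihood form, a block for replicate number, other scalings, filters and thresholds, counts left unrounded, and the omission of single uteri. The test was checked on simulated data. Of 56748 gene identifiers, 56017 were named in GENCODE M39, the source of symbols, coordinates and transcripts, with sequence from GRCm39. Promoter sequences of the other members are not reported here. The authors' annotation version is not given in the sources used here. Named genes were the 10 members, genes of fixed lists, the 8 and 5 genes most and least like *Alox15*, and neighbours within 100 kb. Members and lists were chosen with earlier results of these data known. Mean squared differences between uteri of a group were at least 101.6 times those of counting noise, so no library was a duplicate.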

Additional observations from a re-analysis of the deposited data

How the results depend on the processing

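The *Alox15* difference kept its direction in all 15 alternatives, and its adjusted p passed below 0.05 with edgeR's exact test (log2 fold change −3.01), DESeq2 (−2.98) and no filter on low counts (−2.96). With 1 uterus left out it ranged from −3.37, without control 2 and under 0.05, to −2.56. The sign of *Alox12* turned without control 1 (0.0045), control 2 (0.20) or *Gp130* ecKO 1 (0.09), within a range of −0.34 to 0.20, and that of *Lta4h* without control 3 (−0.014, range to 0.24). The number of members called was 2 with the exact test, 2 with DESeq2, 1 without the filter, and 0 to 1 with a uterus left out. The number of genes called, 26 in the quasi-likelihood test, was 1252 with the exact test, 1593 with DESeq2, 7 with the legacy form, 105 without the filter, 856 at an FDR of 0.10, and 1 to 897 with a uterus left out, the highest without control 2. The cause was not tested. With the replicate number as a block, *Alox15* had −2.82 (adjusted p = 0.0866) and 6 genes were called. Uteri of the same number deviated together with r = 0.10, 0.06 and −0.19, and those of unlike numbers with r from −0.297 to 0.215. Uteri of the same number were thus not more alike by this measure, and shared handling was not tested. The Alox15 share of lipoxygenase TPM, with 1 uterus left out, was 80.4% to 93.4% in the control and 55.5% to 61.3% in *Gp130* ecKO. Depth limits *Alox5*, *Alox8*, *Aloxe3* and *Alox12b*, where 3 counts correspond to 0.115 to 0.20 CPM.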

Other observations

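*Aloxe3* and *Alox12b* work in the epidermis with genes that build its lipid barrier, and 6 of 9 such genes were tested although both lipoxygenases were nearly absent. With an unadjusted p under 0.05 there were 2 higher and 2 lower, where 25.0% of all genes tested passed in either direction, and none was called by edgeR's quasi-likelihood test. *Cers3*, a ceramide synthase for very long fatty acids, had 12.3, 6.59 and 1.27 CPM in control uteri, against 44.4, 13.7 and 21.6 CPM in *Gp130* ecKO uteri. All *Gp130* ecKO uteri were above all controls (log2 fold change 1.96, adjusted p = 0.162). *Cyp4f39*, a hydroxylase of such fatty acids, had 0, 0.154 and 0 CPM across control uteri and 0.949, 0.538 and 0.912 CPM across *Gp130* ecKO uteri (adjusted p = 0.0821). Its counts were 0, 4 and 0 against 21, 14 and 22. It passed the filter only through the *Gp130* ecKO uteri, so its place among the 2 higher genes is description only. *Tgm1*, a transglutaminase of the cornified envelope, had 6.15, 1.23 and 2.67 CPM across control uteri and 0.588, 0.654 and 0.249 CPM in *Gp130* ecKO, without overlap (log2 fold change −2.74, adjusted p = 0.0953). *Elovl4*, which elongates fatty acids, had 1.98 to 5.07 CPM in control uteri, against 0.678 to 1.5 CPM in *Gp130* ecKO uteri (adjusted p = 0.16). Of 8 stratified epithelium markers, *Krt5* had at most 0.0386 CPM in any uterus and *Sprr1b* was at 0 in all 6. All 3 that were tested had positive log2 fold changes, and *Trp63*, a transcription factor of basal epithelial cells, was higher in every *Gp130* ecKO uterus than in every control (log2 fold change 1.46, adjusted p = 0.119). The list summed to 5.62 to 10.6 CPM in control uteri, against 9.82 to 15.5 CPM in *Gp130* ecKO uteri.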
